A study of Mus musculus with 10 samples.

Results

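The nuclear-encoded subunits of respiratory complexes II, III, IV and V, with cytochrome c, were examined in the left ventricle (LV) of 4-week-old mice. The members were the rows named Sdha, Sdhb, Sdhc, Sdhd, Cyc1 or Cycs, or starting with Uqcr, Cox4, Cox5, Cox6, Cox7, Cox8 or Atp5. This rule took 61 of 55401 genes, and 53 of them reached a mean of at least 1 FPKM (fragments mapped to a transcript, scaled by its length and by library size) over the 10 libraries. Of these 53, 46 were protein coding and 7 were pseudogene rows, whose reads may be shared with their parent genes, so their values and the split between copy and parent are uncertain. The comparison drew on 11867 genes above the same minimum.

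All animals were wild type (C57BL/6 background), and bulk RNA came from the LV. In 5 mice the ascending aorta had been narrowed soon after birth (neonatal ascending aortic constriction, nAAC), and 5 mice had sham surgery. Pups of both groups stayed with their mothers and were breast fed. The libraries were made to look for genes downstream of the aryl hydrocarbon receptor in the pressure-overloaded LV, a question apart from the genes described here.

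Complex II (succinate dehydrogenase) feeds electrons from succinate into the ubiquinone pool, complex III passes them to cytochrome c, and complex IV (cytochrome c oxidase) reduces oxygen. Complex V is the ATP synthase, which uses the proton gradient that complexes III and IV help to build. The heart draws most of its ATP from this route, and several complex IV subunits exist in a heart and skeletal muscle form and a form made in most tissues.

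The libraries did not form even groups for these genes. Sham replicate 4 was the highest sham library in 51 of the 53 members, by a median of 0.90 log2 units over the mean of the other sham libraries, against 0.07 for all genes. nAAC replicate 1 was the lowest nAAC library in 46 members. Sham replicate 5 was the highest or second highest sham library in 45 members, and nAAC replicate 2 was the highest nAAC library in 44. Transcripts of the mitochondrial genome held 32.9% to 39.9% of TPM (a share of all transcripts) in nAAC and 33.7% to 49.8% in sham. The median log2 FC (nAAC over sham) of all genes was +0.22 in FPKM. Unless stated otherwise, the log2 FC values of genes and complexes below are not set against that shift. Depth in reads was unknown, since the files hold coverage, FPKM and TPM and no counts.

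Most members had a lower log2 FC than the typical gene, but few passed the test on FPKM as deposited. Their median log2 FC was −0.30, which was 0.52 below the median of all genes, and 49 of 53 lay below that median. Less the all-gene median, the complex medians were −0.65 (II), −0.53 (III with cytochrome c), −0.40 (IV) and −0.60 (V). With limma, 4 members were lower (Sdha, Uqcrc2, Cox6c and Atp5c1, 7.55% of 53) against 4.6% of all genes, and 1 was higher (Cox8a, 1.89%) against 27.1% of all genes. No member was a DEG (adjusted p below 0.05 and absolute log2 FC above 1) in limma, against 5.91% of all genes; 14 members were lower and 2 higher at an unadjusted p below 0.05. All 5 nAAC libraries lay below all 5 sham libraries in 4 members (Sdha, Uqcrc2, Atp5b and Atp5c1), against 3.46% of all genes. The reverse held in 0 members, against 18.9% of all genes.

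The number of members called turned on how the libraries were scaled. When each library was divided by its median ratio to the other libraries, the all-gene median fell to about 0 (−0.0008). Then 27 of 53 members were lower (50.9%) against 12.1% of all genes, and 0 were higher against 13.2% (1 at an unadjusted p below 0.05). After each library's trends with transcript length and GC content were removed, 24 members were lower against 15.9% of all genes. None was higher in that fit, against 14.2% (1 at an unadjusted p below 0.05). The lists of 27 and 24 shared 19 members, which is 70.4% of the first and 79.2% of the second. In TPM, 0 members were lower with limma (2 at an unadjusted p below 0.05) against 2.9% of all genes, and 2 were higher (3.77%) against 41.9%. There the members' median was 0.52 below the all-gene median.

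**Figure D1:**
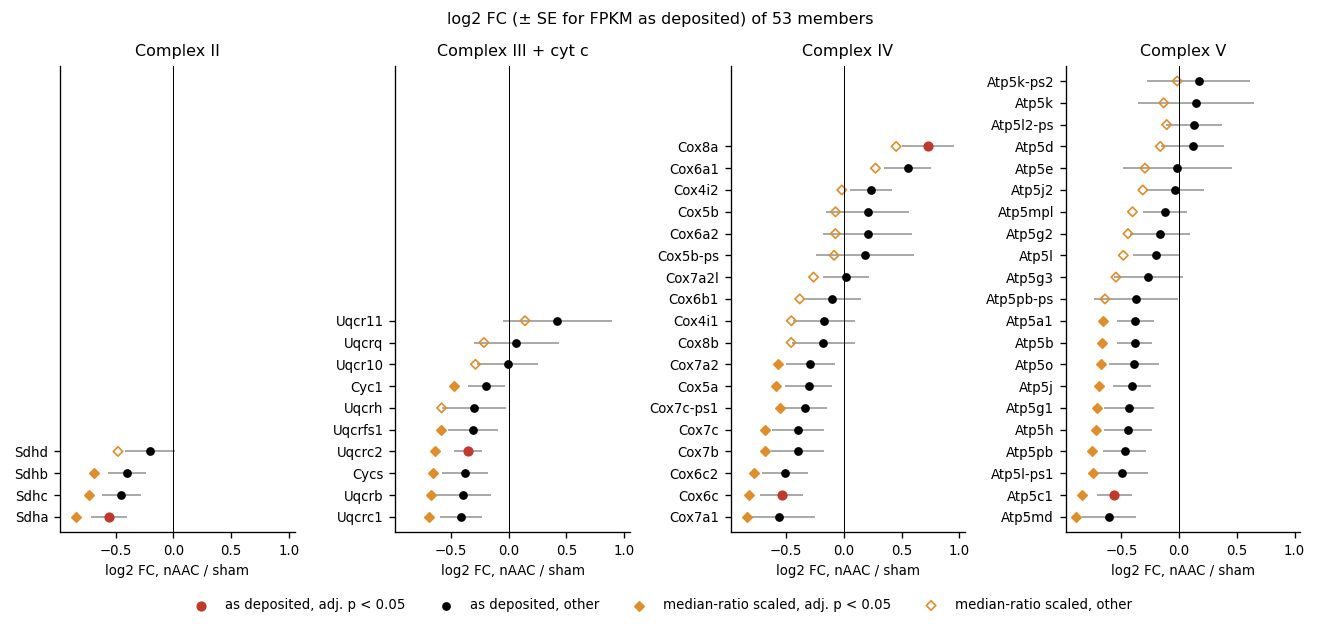
Change of each of the 53 members, one panel per complex. The x axis is log2 FC, nAAC over sham; circles are FPKM as deposited with their SE (red where adjusted p is below 0.05) and diamonds are the values after median-ratio scaling (filled where adjusted p is below 0.05). Diamonds lie to the left of circles, and 27 of them are filled against 5 red circles.

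All 4 subunits of complex II had a negative log2 FC, with a median of −0.43 and 1 call, or −0.29 without sham replicate 4. Sdha encodes the flavoprotein that oxidises succinate (chr13:74322254-74350280, mm10, minus strand). Its FPKM in nAAC replicates 1 to 5 was 160.4, 249, 212, 226 and 203, and in sham replicates 1 to 5 it was 275, 275, 277, 357 and 365. The groups did not overlap. The means were 210.1 ± 32.9 and 309.9 ± 46.8 (SD, n = 5 each), a log2 FC of −0.56 (SE 0.16, limma adjusted p = 0.016). Sdha was called with every single library left out. It was not called in TPM (limma adjusted p = 0.073) or with Xist as a covariate (limma adjusted p = 0.063).

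Sdhb, the iron-sulfur subunit, had the highest mean level of the complex at 432 FPKM. It measured 368 ± 25.6 in nAAC and 497 ± 123 in sham (SD, n = 5), with a log2 FC of −0.40 (SE 0.17, limma adjusted p = 0.080). Sdhd, a membrane anchor with the smallest change, had a log2 FC of −0.20 (SE 0.21, limma adjusted p = 0.49). With median-ratio scaling 3 of the 4 were called lower, all but Sdhd, against 12.1% of all genes.

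The 250 bases before the RefSeq start of Sdha are shown as an example of these promoters, because Sdha is a called subunit and its window holds letters known as the core of the NRF-1 site. NRF-1 is a factor known for regulating nuclear genes of respiration. Capitals mark GCGCANGC on either strand, 5′ to 3′ along the gene, at chr13:74350241-74350490, minus strand, GRCm38.p6.
Sdha: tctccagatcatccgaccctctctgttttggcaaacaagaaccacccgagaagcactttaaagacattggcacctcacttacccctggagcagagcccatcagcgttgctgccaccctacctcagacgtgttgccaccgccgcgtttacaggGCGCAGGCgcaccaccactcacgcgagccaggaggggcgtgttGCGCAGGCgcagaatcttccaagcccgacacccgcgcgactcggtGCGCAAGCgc
The window of Sdha held 3 such stretches. Of the 46 protein-coding members, 35 matched a full-length RefSeq promoter sequence by symbol or synonym. Among those 35, 11 (31.4%) held GCGCANGC on either strand, against 9.38% of 27025 genes. The ETS core CCGGAAG, known as part of the NRF-2/GABP site, stood in 9 of 35 members (25.7%) and in 7.83% of genes. The ERR half-site AAGGTCA was in 2 members (5.71%) and in 4.7% of genes. TATAAA and the E-box CAGCTG were each in 2 members (5.71%), against 14.3% and 14.7% of genes. Both strands were searched, each motif was counted on its own, and matches of different motifs may overlap. GCGCANGC and CCGGAAG each contain CG, and the median window held 14 CG in the members against 6 over all genes. The shares were not matched for CG content or for expression level, and what part these play was not tested. These shares describe letters and not occupied sites.

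Complex III and cytochrome c had 10 members with a median log2 FC of −0.30 and 1 call. Without sham replicate 4 that median was −0.10. Uqcrc2 encodes a core subunit (chr7:120635176-120659524, mm10, plus strand) and had the smallest spread of any tested member between sham libraries (SD 0.057 on the log2 scale). Its FPKM was 294, 331, 269, 281 and 292 in nAAC and 359, 389, 366.5, 391 and 366 in sham. Every nAAC library lay below every sham library. The means were 293 ± 23.4 and 374 ± 14.8 (SD, n = 5), a log2 FC of −0.35 (SE 0.12, limma adjusted p = 0.040). The call was kept in 3 of the 10 fits that leave out 1 library, with limma adjusted p between 0.029 and 0.096. Uqcrc2 was not called in TPM, with Xist as a covariate (limma adjusted p = 0.21) or with a replicate block (limma adjusted p = 0.092). Uqcrc1, the other large core subunit, had the lowest log2 FC, −0.41 (limma adjusted p = 0.10), from 419 ± 14.4 and 574 ± 159 FPKM.

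Uqcrh, the hinge protein, had the highest level of the complex (mean 559 FPKM) and a log2 FC of −0.30 (limma adjusted p = 0.42). Uqcr11, one of its smallest subunits, had the highest log2 FC, +0.42, with an SE of 0.47 (limma adjusted p = 0.51). Its sham values ran from 92.0 to 579.5 FPKM (sham replicates 2 and 4) and took in all the nAAC values, which ran from 123 to 387. Cycs, which encodes the somatic cytochrome c, measured 110.4 ± 24.0 in nAAC and 145 ± 40.1 in sham, a log2 FC of −0.38 (limma adjusted p = 0.16). With median-ratio scaling 6 of the 10 were lower, against 12.1% of all genes, and Uqcr11 was not among them.

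Complex IV had 18 members, the smallest median change (−0.18), 1 lower call and 1 higher call. Without sham replicate 4 that median was +0.06, with 10 of 18 members positive and the median 0.18 below that of all genes. Cox6c, a small subunit without a tissue form in this set, was the lower call (chr15:35925886-35938246, mm10, minus strand). Its FPKM was 725, 1147, 874.5, 755 and 791 in nAAC and 1121, 1140, 1179, 1748 and 1073 in sham. nAAC replicate 2 lay within the sham range, and sham replicate 4 stood far above the other sham libraries. The means were 859 ± 171 and 1252 ± 280.0 (SD, n = 5), a log2 FC of −0.54 (SE 0.18, limma adjusted p = 0.040). It held in 3 of the 10 fits without 1 library. Cox6c was not called in TPM, with Xist as a covariate (limma adjusted p = 0.23) or with a replicate block (limma adjusted p = 0.069). Cox6c2, a pseudogene row that may share reads with Cox6c, had a log2 FC of −0.51 (limma adjusted p = 0.066).

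Cox8a, the form of subunit VIII made in most tissues, was the only member called higher (chr19:7215153-7217616, mm10, minus strand). Its FPKM was 121, 169, 136, 125 and 98.45 in nAAC and 82.1, 48.0, 60.4, 115 and 97.7 in sham. nAAC replicate 5 lay below sham replicate 4, so the groups overlapped. The means were 130.0 ± 25.6 and 80.6 ± 27.1 (SD, n = 5), a log2 FC of +0.73 (SE 0.23, limma adjusted p = 0.027). The call was lost with median-ratio scaling (log2 FC +0.45, limma adjusted p = 0.13) and with length and GC trends removed (+0.39, limma adjusted p = 0.052). It held in 5 of the 10 fits without 1 library.

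Cox6a1, the form of subunit VIa made in most tissues, measured 143, 149, 137, 141 and 125 FPKM in nAAC and 99.6, 65.4, 72.1, 159 and 100.3 in sham. Only sham replicate 4 reached the nAAC values. The log2 FC was +0.55 (SE 0.21, limma adjusted p = 0.057), and without sham replicate 4 it was +0.74 (limma adjusted p = 0.0023). With length and GC trends removed it was +0.15 (limma adjusted p = 0.42). Cox4i1, which carries the highest level of the complex (mean 1085 FPKM), had a log2 FC of −0.17 (limma adjusted p = 0.64) that turned to +0.05 without sham replicate 4. Cox7a2l, counted here by its name, is known as a factor that joins complexes III and IV, and had a log2 FC of +0.02 (limma adjusted p = 0.96).

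Complex V had 21 members, a median log2 FC of −0.38 and 1 call, and all 21 lay below the median of all genes. Without sham replicate 4 the median was −0.12 and 16 of 21 lay below that of all genes. Atp5c1 encodes the gamma subunit, the rotating stalk of the catalytic head (chr2:10056016-10080510, mm10, minus strand). Its FPKM was 498, 613, 554, 538 and 541 in nAAC and 731, 700.5, 719, 1067 and 877 in sham, with no overlap. The means were 549 ± 41.5 and 819 ± 156 (SD, n = 5), a log2 FC of −0.56 (SE 0.15, limma adjusted p = 0.015). It was called in 22 of 23 alternative fits, the exception being TPM (limma adjusted p = 0.066).

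Atp5b, the catalytic beta subunit, had the highest level of all members (mean 1721 FPKM; chr10:128083273-128090391, mm10, plus strand). Its FPKM was 1344, 1596, 1522, 1529 and 1437 in nAAC and 1917, 1628, 1716, 2315 and 2206 in sham. The groups did not overlap, although nAAC replicate 2 and sham replicate 2 were close. The log2 FC was −0.39 (SE 0.15), which did not pass the test (limma adjusted p = 0.071) but did with median-ratio scaling (−0.67, limma adjusted p = 0.0038). Atp5md, a small membrane subunit, had the lowest log2 FC of the complex at −0.61 (SE 0.23, limma adjusted p = 0.063). The highest was that of the pseudogene row Atp5k-ps2, +0.17 (limma adjusted p = 0.79), which was −0.02 with median-ratio scaling.

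**Figure D2:**
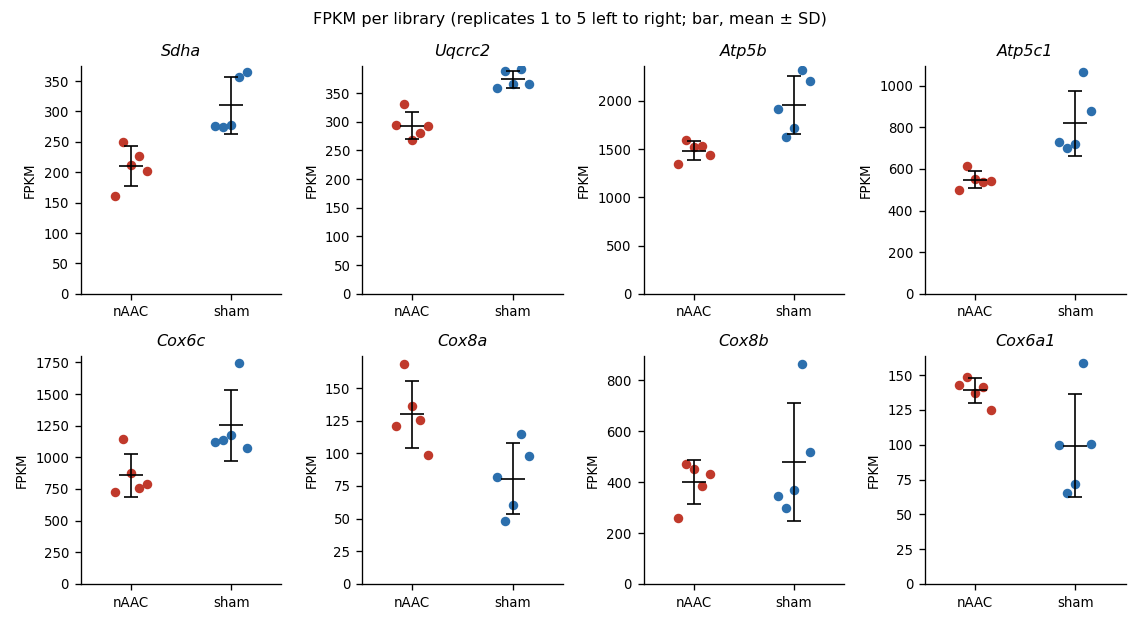
FPKM (y axis, from 0) of 8 members in the 5 nAAC (red) and 5 sham (blue) libraries, replicates 1 to 5 from left to right within each group, with the mean ± SD as a bar. In Sdha, Uqcrc2, Atp5b and Atp5c1 all red points lie below all blue points, while in Cox8a and Cox6a1 most red points lie above.

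The heart and muscle forms of complex IV were then set against their counterparts within each library, a ratio that, but for the pseudocount of 1, no scaling of whole libraries can move. The ratio of Cox8a to Cox8b was 0.47, 0.36, 0.30, 0.32 and 0.23 in nAAC and 0.24, 0.16, 0.16, 0.13 and 0.19 in sham, replicates 1 to 5. Only nAAC replicate 5 fell within the sham range, just below sham replicate 1. The mean log2 ratio differed by 0.91 (SD 0.37 in nAAC and 0.31 in sham, exact two-sided permutation p = 0.016), with p = 0.079 after adjustment over 5 ratios, so it did not pass. Cox8b made up 75.1% ± 4.86 of the pair in nAAC and 85.1% ± 2.78 in sham (SD, n = 5). Cox8b itself had a log2 FC of −0.18 (limma adjusted p = 0.64), from 400.01 ± 85.2 and 479 ± 231 FPKM.

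The promoters of 2 of these pairs are printed because the members of a pair differ in their CpG content. Cox6a2, Cox4i1 and Cox4i2 matched no full-length RefSeq promoter sequence by symbol or synonym, so their windows were not counted. Each line is the 250 bases before the RefSeq start, 5′ to 3′ along the gene, GRCm38.p6, with every CG dinucleotide in capitals. Positions are chr19:7217617-7217866 (minus strand) for Cox8a, chr7:140900447-140900696 (minus strand) for Cox8b, chr9:79759854-79760103 (minus strand) for Cox7a2 and chr7:30183921-30184170 (plus strand) for Cox7a1.
Cox8a: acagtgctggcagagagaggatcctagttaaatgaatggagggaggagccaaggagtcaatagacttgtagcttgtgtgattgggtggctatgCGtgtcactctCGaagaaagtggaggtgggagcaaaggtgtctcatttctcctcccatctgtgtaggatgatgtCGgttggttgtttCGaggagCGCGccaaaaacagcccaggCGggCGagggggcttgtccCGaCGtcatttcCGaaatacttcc
Cox8b: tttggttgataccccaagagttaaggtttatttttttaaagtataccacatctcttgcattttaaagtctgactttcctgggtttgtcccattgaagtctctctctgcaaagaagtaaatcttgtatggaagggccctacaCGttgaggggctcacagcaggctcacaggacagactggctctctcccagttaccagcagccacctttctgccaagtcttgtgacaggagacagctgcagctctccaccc
Cox7a2: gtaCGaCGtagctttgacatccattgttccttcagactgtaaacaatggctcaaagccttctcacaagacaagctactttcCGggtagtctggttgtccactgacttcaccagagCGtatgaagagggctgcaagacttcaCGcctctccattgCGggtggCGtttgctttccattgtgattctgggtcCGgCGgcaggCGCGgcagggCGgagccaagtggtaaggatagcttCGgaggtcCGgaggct
Cox7a1: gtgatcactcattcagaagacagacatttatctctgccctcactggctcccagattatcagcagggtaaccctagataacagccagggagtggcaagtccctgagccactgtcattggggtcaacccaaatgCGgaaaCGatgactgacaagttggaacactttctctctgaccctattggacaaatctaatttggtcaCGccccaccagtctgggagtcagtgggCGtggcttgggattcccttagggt
The window of Cox8b held 1 CG and that of Cox7a1 held 4, the lowest values among the 35 matched members, whose median was 14. Cox8a held 11 and Cox7a2 held 14. Over 27025 genes the median was 6, and 92.3% held at least 1. Windows with no more CG than that of Cox8b made up 18.3% of genes. These are counts of letters, and no methylation was measured here.

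Cox7a1, the heart and muscle form of subunit VIIa, measured 195, 377, 343, 322 and 302 FPKM in nAAC and 394, 260.1, 319.7, 935 and 561 in sham. Its log2 FC was −0.56 (SE 0.31, limma adjusted p = 0.18), the lowest of complex IV. Cox7a2, made in most tissues, measured 201, 315, 273, 276.5 and 279 in nAAC and 287, 237, 268, 533 and 376 in sham, a log2 FC of −0.29 (limma adjusted p = 0.32). Both sets of values overlapped between groups. Their log2 ratio was 0.27 higher in nAAC (exact permutation p = 0.087, adjusted p = 0.15). Cox7a1 made up 53.0% ± 2.55 of the pair in nAAC and 57.6% ± 4.48 in sham.

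Cox6a2, the heart and muscle form of subunit VIa, was the dominant form, with 84.9% ± 4.39 of the pair in nAAC and 87.6% ± 3.89 in sham. Its FPKM was 485, 1129, 909.8, 885 and 759 in nAAC and 493, 406, 420.1, 1603 and 1212 in sham. The sham values were both the lowest and the highest. Its log2 FC was +0.21 (limma adjusted p = 0.70) and the log2 ratio of Cox6a1 to Cox6a2 was 0.35 higher in nAAC (exact permutation p = 0.31, adjusted p = 0.39).

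Cox4i2, an alternative form of subunit IV known for its regulation by oxygen, was the least abundant protein-coding member tested, at 10.6 ± 2.17 FPKM in nAAC and 8.97 ± 2.77 in sham. Its log2 FC of +0.24 (limma adjusted p = 0.34) was −0.02 with median-ratio scaling. The log2 ratio of Cox4i2 to Cox4i1 was 0.41 higher in nAAC (exact permutation p = 0.079, adjusted p = 0.15). Atp5g1 and Atp5g3 encode precursors of the same c subunit of the ATP synthase ring and had log2 FC of −0.43 (limma adjusted p = 0.14) and −0.27 (limma adjusted p = 0.51). Their log2 ratio was 0.17 lower in nAAC (−0.17, exact permutation p = 0.68). The smallest p that 5 against 5 libraries can give is 0.0079.

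**Figure D3:**
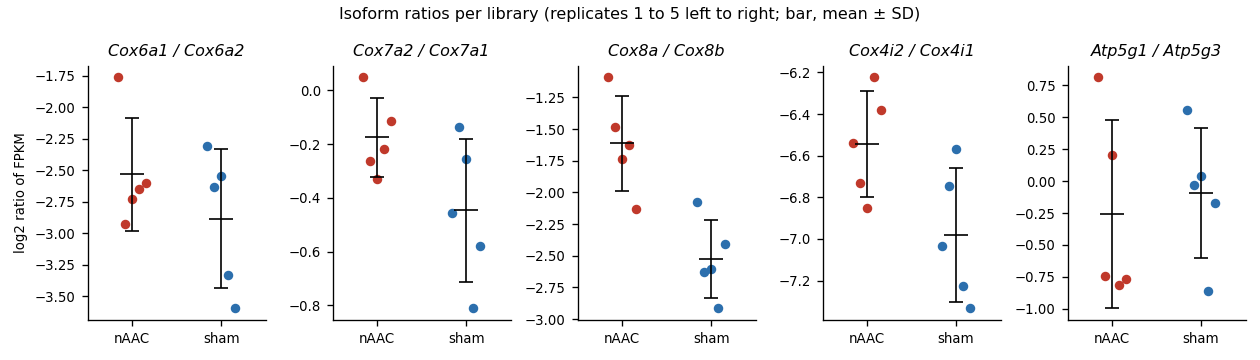
log2 ratio of the FPKM of the paired genes, without the pseudocount used in the test (y axis, a separate scale in each panel) in the 5 nAAC (red) and 5 sham (blue) libraries, replicates 1 to 5 from left to right, with the mean ± SD. The ratio of Cox8a to Cox8b lies above all sham points in 4 of 5 nAAC libraries, and the other 4 ratios overlap more widely.

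The spread between libraries was not the same for long and short subunits. Coding length ran from 156 to 1992 bases over the 46 protein-coding members. In the 6 with a coding length of at least 900 bases (Sdha, Cyc1, Uqcrc1, Uqcrc2, Atp5a1 and Atp5b) sham replicate 4 stood 0.37 log2 units above the other sham libraries in the median. In the 22 of at least 300 but under 900 bases this was 0.89, and in the 18 under 300 bases it was 1.14. The SD of log2 level over the 5 sham libraries had a median of 0.24, 0.44 and 0.58 in these classes, against 0.25 for all genes. Over the 46 members, Spearman's rho of coding length with the excess of sham replicate 4 was −0.55, and with log2 FC it was −0.33. With length and GC trends removed, the rho with log2 FC was −0.50, so that fit did not take away this relation. All 46 points share the same 10 libraries. Over 11860 genes the rho of transcript length with the excess of sham replicate 4 was −0.66. What sets sham replicate 4 apart was not tested.

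**Figure D4:**
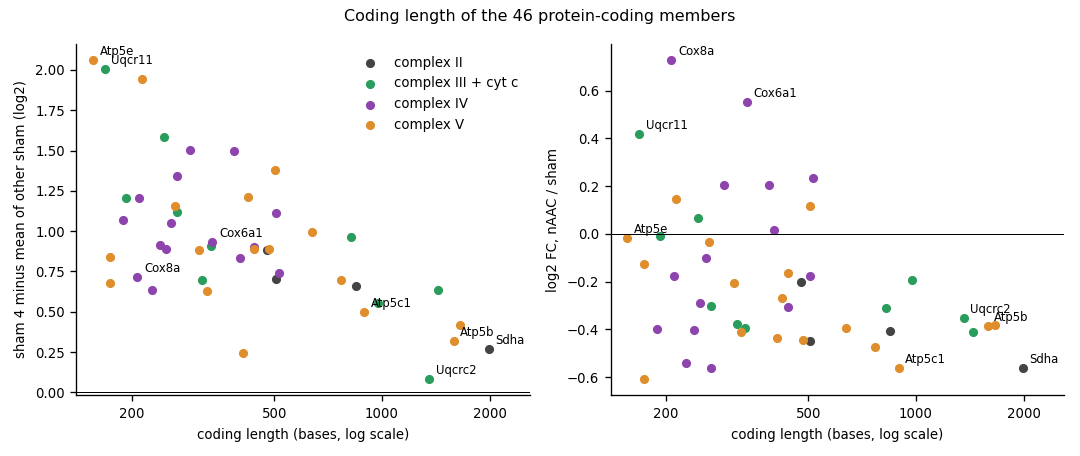
Coding length (x axis, bases, log scale) of the 46 protein-coding members against the level in sham replicate 4 minus the mean of the other sham libraries (left, log2) and against log2 FC, nAAC over sham (right), coloured by complex. The excess in sham replicate 4 reaches 2.06 log2 units in Atp5e, the shortest, and is 0.08 in Uqcrc2, and the long members all have a log2 FC below 0.

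The 6 long members were the most even group. Their median log2 FC was −0.38 and 2 of 6 were called lower in FPKM as deposited, against 4.6% of all genes. All 6 were lower with median-ratio scaling (12.1% of all genes), with trends removed (15.9%) and with median-ratio scaling without sham replicate 4 (15.7%). In TPM and with Xist as a covariate 0 of 6 were called lower, against 2.9% and 3.29% of all genes. With a replicate block 1 of 6 was called lower, against 497 of 11867 genes. A score was taken as the median over members of the centred log2 level less the same median over all genes. For the 6 long members it ran from −0.39 to −0.12 in nAAC and from 0.11 to 0.57 in sham, with no overlap. Sdha, Uqcrc2 and Atp5b among them also had no overlap singly. For the 18 short members it ran from −0.68 to 0.21 in nAAC and from −0.32 to 1.07 in sham. By complex, the score of complex II did not overlap (nAAC −0.52 to −0.13, sham 0.11 to 0.82), and those of complexes III, IV and V did. Such scores were not taken for other gene sets, so no background share stands beside them.

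**Figure D5:**
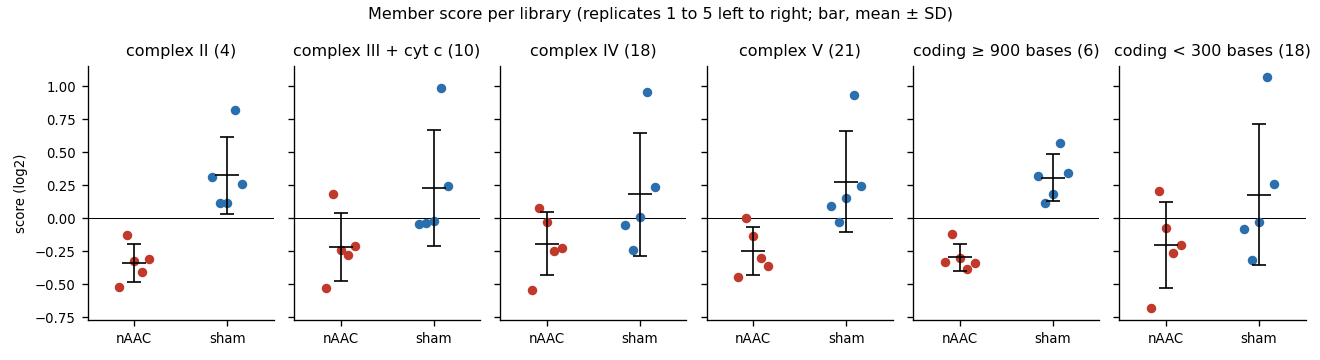
Score (y axis, log2, member median less all-gene median) in each nAAC (red) and sham (blue) library, replicates 1 to 5 from left to right, with mean ± SD, for the members of each complex and for long and short protein-coding members (number of members in the title). Red and blue points are apart for complex II and for the 6 long members, and sham replicate 4 is the highest point in every panel.

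Without sham replicate 4 the members remained below the typical gene by a smaller margin. Their median log2 FC was −0.11, which was 0.35 below the all-gene median, with 4 members lower (7.55%) against 5.23% of all genes and 2 higher (3.77%) against 33.1%. With median-ratio scaling and without this library, 26 members were lower (49.1%) against 15.7% of all genes, all 26 among the 27 called with it. In that fit 2 were higher, against 16.2%. Without both sham replicate 4 and nAAC replicate 1, 3 members were lower (5.66%) against 4.79% of all genes, and Uqcr11 was the only DEG among the members, against 6.89%. In that fit 6 members were higher (Atp5d, Atp5k, Cox4i2, Cox6a1, Cox8a and Uqcr11, 11.3%), below the 35.5% of all genes. The members' own median log2 FC was −0.01, with 27 negative and 26 positive, and was 0.27 below that of all genes. The medians of complexes IV and V were +0.18 and +0.05. The summed FPKM of the members was 19004 ± 2743 in nAAC and 24063 ± 8053 in sham, or 20729 ± 3518 without sham replicate 4. By library the sham sums were 20330, 17920, 18880, 37400 and 25790 in replicates 1 to 5. The nAAC sums ran from 15110 to 22720, so sham replicates 1 to 3 lay within the nAAC range.

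Xist and Ddx3y were unevenly spread over the groups, and the labels give no sex. Xist, the RNA that coats the inactive X chromosome, was at 17.2, 0.023, 14.8, 16.6 and 17.9 FPKM in nAAC and 0, 0.017, 0.0041, 3.70 and 10.6 in sham, replicates 1 to 5. Ddx3y, a gene of the Y chromosome, was listed at 0 in 6 libraries. The other 4 were the nAAC library numbered 2, with 13.6 FPKM, and the sham libraries numbered 1 to 3, with 10.4, 16.3 and 13.8. An uneven mix of sexes and the surgery cannot be fully told apart in these groups. With Xist as a covariate, 1 member stayed lower (Atp5c1, limma adjusted p = 0.045), which is 1.89% against 3.29% of all genes, and 9 were lower at an unadjusted p below 0.05. The members' median was 0.55 below that of all genes in that fit, with limma calling no member higher (1 at an unadjusted p below 0.05) against 13.4% of all genes.

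Marker lists of the cell types in the tissue are read against the 4.6% of all genes that were lower and the 27.1% that were higher. Of 12 cardiomyocyte markers 2 were lower in nAAC (Tnni3 and Pln) and 2 higher (Actn2 and Mybpc3), with summed levels of 11013 to 17078 FPKM in nAAC and 13675 to 26630.5 in sham. Of 8 fibroblast markers 5 were higher (62.5%), with sums of 986 to 1488 against 649 to 902. Mural markers were higher in 3 of 5 (60.0%). Endothelial markers were higher in 1 of 7 (14.3%) and macrophage or leukocyte markers in 1 of 6 (16.7%), both below the share of all genes. None of 3 atrial or 5 erythroid markers was called, and none of 5 skeletal muscle markers was above the minimum (sums of at most 1.17). Of 3 brown adipocyte markers Cidea alone was tested and was higher, while Ucp1 was at 0 in 9 of 10 libraries. Their part in the members' levels was not tested, and in bulk LV fewer cardiomyocytes and less RNA per cardiomyocyte cannot be told apart.

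The subunits encoded by the mitochondrial genome also had negative log2 FC, and none passed the test. mt-Co1, mt-Co2, mt-Co3, mt-Cytb, mt-Atp6 and mt-Atp8, the mitochondrial subunits of complexes III to V, had log2 FC from −0.48 (mt-Co2) to −0.22 (mt-Atp8), with limma adjusted p from 0.076 to 0.57. The summed nuclear subunits of complex IV equalled 7.78% ± 1.58 of the summed mitochondrial ones in nAAC and 7.45% ± 3.95 in sham (SD, n = 5), or 5.96% ± 2.45 without sham replicate 4. For complex III the values were 14.4% ± 1.93 and 14.2% ± 8.50 (10.8% ± 4.23 without that library). For complex V they were 38.9% ± 9.37 and 41.4% ± 21.3 (33.5% ± 13.8 without it), so the sign of the difference turned with 1 library, and no difference was tested.

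The assembly factors of complexes II to V had a median near that of all genes. Of 39 listed, 38 were tested and their median log2 FC was +0.21, against +0.22 for all genes. With 6 higher (15.8%) and 1 lower (2.63%), both shares lay below those of all genes, 27.1% and 4.6%. Cox19, an assembly factor of complex IV, had the largest change of the 6 (7.20 ± 2.36 in sham and 19.3 ± 3.47 in nAAC, log2 FC +1.33, limma adjusted p = 0.00018). Coa3 (+0.73), Coa4 (+0.60) and Sco1 (+0.35) for complex IV, and Lyrm7 (+0.53) and Bcs1l (+0.46) for complex III, were the others. Tmem70, which is known to aid assembly of complex V, was the only one lower (44.6 ± 6.49 in sham and 31.8 ± 4.52 in nAAC, log2 FC −0.47, limma adjusted p = 0.019).

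The 8 members below the minimum were Cox6b2 (mean 0.77 FPKM), Cox7b2 (listed at 0 in 9 libraries), Cox8c (listed at 0 in all 10), a second gene named Atp5o (ENSMUSG00000116933, listed at 0 in all 10) and the pseudogenes Uqcrh-ps1, Uqcrh-ps2, Atp5l-ps2 and Atp5c1-ps. The highest of their means was that of Cox6b2, whose product is known from testis.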

How the data were processed

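Bulk RNA was sequenced from the LV of 5 nAAC and 5 sham mice. The authors deposited 1 table per library with coverage, FPKM and TPM per gene. The submitters' processing notes name mm10, and the aligner and quantifier were not given in the sources used here. Of 55141 genes shared with GENCODE M21, 54784 had equal coordinates. Nothing says whether strand was used.

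Rows sharing an identifier were summed. The deposited FPKM was tested as log2(FPKM + 1) with limma 3.58.1 (R 4.3.3, empirical Bayes with trend), over 11867 genes with a mean of at least 1 FPKM. P-values were two-sided and Benjamini-Hochberg adjusted over all genes tested. A pseudocount of 1 understates changes of low genes. The deposited TPM served as an alternative, and the coverage signal was not tested. Isoform ratios had an exact two-sided permutation test, adjusted over 5 ratios. Trends with transcript length and GC were removed by loess (span 0.5). The length was that of the longest annotated transcript, which can far exceed the coding length (1697 against 156 bases in Atp5e). Alternatives also covered scaling, filter, pseudocount, a replicate block, Xist and leaving out libraries. Replicates are labelled as separate samples. The labels do not name the animals, so p-values measure the spread between these libraries.

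Members and gene lists were chosen with earlier results of these data known. Named genes were those in the isoform ratios, members with an adjusted p below 0.05, and per complex the highest mean FPKM and the lowest and highest log2 FC, with members below the minimum by name. Cycs, Cox6c2, Cox7a2l and the members listed by coding length or in counts of 6 or fewer were named after their values were seen.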

Additional observations from a re-analysis of the deposited data

Results flagged for a closer look

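In 66 groups of 5 libraries, 5 held a library whose gap to its nearest neighbour, as a share of the group's whole range, passed Dixon's critical value of 0.71. Chance flags about 1 in 20 groups, which would be 3.3 if the groups were independent. All groups come from the same 10 libraries, so the number of flags cannot be judged against 3.3.

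For Cox6c, sham replicate 4 was the highest sham library, with a gap of 0.808 of the range. For the log2 ratio of Cox6a1 to Cox6a2, nAAC replicate 1 was the highest nAAC library, at 0.724. Sham replicate 4 was also the highest sham library in the score of complex II (0.722), of complex III with cytochrome c (0.724) and of complex V (0.715).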

How the results depend on the processing

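The count of 4 lower members became 27 with median-ratio or upper-quartile scaling and 15 (28.3%) without mitochondrial genes in the scaling. Of all 11867 genes, 1359 were lower with upper-quartile scaling and 602 without mitochondrial genes in the scaling. The member count was 24 with length and GC trends removed, 1 with Xist as a covariate, and 0 in TPM or at an adjusted p below 0.01. Leaving out 1 library gave 2 to 5, against 426 to 621 of 11867 genes. Settings without sham replicate 4, chosen after seeing the data, gave 26 (median-ratio) and 23 (trends removed, against 1990 of 11860 genes). The count of 1 higher member became 0 with median-ratio or upper-quartile scaling, without the minimum level, and with trends removed (with or without sham replicate 4). It was also 0 with Xist or at an adjusted p below 0.01. Higher over all genes were 1620 of 11867 with upper-quartile scaling and 3412 of 29309 without the minimum level. With trends removed and without sham replicate 4, 1801 of 11860 genes were higher. The count of higher members became 2 without mitochondrial genes (against 3143 of 11867 genes), in TPM, and with median-ratio scaling without sham replicate 4. It was 0 to 2 with 1 library left out, against 2392 to 3930 of 11867 genes. It was 6, with 1 DEG, without nAAC replicate 1 and sham replicate 4. The medians against all genes kept their sign throughout, while the complex IV median itself turned to 0.06 without sham replicate 4. Without nAAC replicate 1 and sham replicate 4, the complex IV and complex V medians were 0.18 and 0.05.

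For the ratio of Cox8a to Cox8b the adjusted test was passed with trends removed (0.846) and Xist (0.994), and leaving out 1 library gave 0.776 to 1.03 (passed without nAAC replicate 5), or 0.678 without nAAC replicate 1 and sham replicate 4. For Cox7a2 to Cox7a1 it was passed with trends removed (0.329).

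Same-numbered libraries showed little shared deviation (correlations from −0.316 to 0.192). The labels do not say whether the numbers pair them, and these few correlations cannot settle it. With a replicate block 2 of 53 members were lower (3.77%) and 0 higher, against 497 and 2929 of 11867 genes. At an unadjusted p below 0.05, 12 members were lower and 2 higher in that fit.

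Signs turned with median-ratio scaling in Atp5k-ps2 (−0.017), Cox4i2 (−0.018) and Cox6a2 (−0.074), with upper-quartile scaling in the same genes (−0.005, −0.005 and −0.060), and with trends removed in Atp5k-ps2 (−0.054), Cox4i2 (−0.084, and −0.089 without sham replicate 4) and Cox6a2 (−0.035). With Xist they turned in Atp5k-ps2 (−0.087) and Cox6a2 (−0.096). Without sham replicate 4, Cox4i1 was 0.049 and Cox8b 0.065. Without nAAC replicate 1 and sham replicate 4, Atp5g3, Cox4i1, Cox8b, Sdhd and Uqcrh turned, each to the upper end of its range below. With libraries left out, the ranges were −0.079 to 0.690 for Atp5k-ps2 (−0.036 without nAAC replicate 2), −0.391 to 0.149 for Atp5g3, −0.336 to 0.137 for Cox4i1, −0.320 to 0.214 for Cox8b, −0.288 to 0.080 for Sdhd and −0.423 to 0.083 for Uqcrh. The cause of these changes was not tested.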
